A study of Caenorhabditis elegans with 80 samples.

Results

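Whole *Caenorhabditis elegans* larvae exposed to cadmium at 20 mg/L for 8 h, the middle of the study's doses, were compared with unexposed larvae kept for the same 8 h. Members were chosen by sample title, which gave 3 exposed arrays and 3 control arrays of 26 in the cadmium series and of 80 in the whole series. Worms were synchronised, grown in CeHR, an axenic liquid medium, at 22.5 °C and reached the middle of the fourth larval stage (L4) before the metal was added to the medium. The other cadmium groups used here were 5 mg/L at 8 h (3 arrays), 50 mg/L at 8 h (3 arrays), 20 mg/L at 4 h (2 arrays) and the unexposed control at 4 h (3 arrays). The labels name no strain, genotype or sex, and do not say whether replicates came from separate flasks. The p values therefore rest on the spread among these arrays, some of which may be technical. Polyadenylated RNA of whole animals was read as MAS5 signal, a linear brightness per probe set. Signals are given here after each array was centred to a median of 202.9.

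Cadmium is a toxic metal that binds thiol groups and takes the place of zinc in proteins. Worms answer metals mainly in the intestine, where metallothioneins bind the ion, transporters of the cation diffusion facilitator family move zinc into gut granules or out of the cell, and glutathione and its transferases handle thiol-reactive compounds. Heat shock proteins hold damaged proteins in solution. At the L4 stage the hermaphrodite germ line makes sperm and then turns to oocytes, and the intestine starts to make yolk.

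The arrays of both groups had a like correlation within their group, from 0.949 to 0.972 at 20 mg/L and from 0.935 to 0.962 in the control (Pearson's r of log2 signal over the tested probe sets). Replicate 3 at 20 mg/L had raised dim signals, with a 20th percentile of 82.5 before centring against 36.7 and 54.6 in its 2 companions, and 39.6 to 57.5 in the controls. As a check on RNA degradation, the ratio of 3' to 5' actin probe sets averaged 0.75 ± 0.14 at 20 mg/L and 0.88 ± 0.25 in the control on the log2 scale (SD, n = 3 each). The 2 arrays of 20 mg/L at 4 h correlated at only 0.788, against at least 0.9 in each of the other 8 cadmium groups, and they enter the pooled spread of the fit. Without them more probe sets were called, 472 (346 higher and 126 lower), and these held all 326 of the calls described next.

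After 8 h at 20 mg/L, some genes of metal binding and zinc transport, the ferritin gene ftn-1, 3 of 9 small heat shock protein genes, 11 of 39 glutathione S-transferases, 8 of 41 cytochromes P450 and 9 of 50 UDP-glucuronosyltransferases were higher. Lower were 2 of 5 yolk genes, 2 of 123 cuticle collagens and single genes of fat and sulfide metabolism. Most tested members of each of these lists but that of metal binding passed in neither direction. Of 16183 probe sets tested, 326 (2.01%) passed an adjusted p of 0.05 in limma, 256 higher (1.58%) and 70 lower (0.433%). An unadjusted p under 0.05 was found for 1824 of the 16183, and list counts at that threshold are to be read against it. With 1 probe set per gene, 264 of 12250 genes passed (2.16%), 210 higher (1.71%) and 54 lower (0.441%). Among these, 194 were higher and 44 lower by over 2-fold, and 17 were higher by over 10-fold. All 210 higher genes and 52 of the 54 lower ones had exposed and control arrays that did not overlap, a pattern found in 21.2% of all genes tested (7.54% higher, 13.6% lower). Of the 264 called genes, 51 rest on probe sets whose suffix marks possible cross-hybridization. Beside the genes marked so below, the probe sets of gst-16, ugt-6, lys-6 and F49C12.7, which were called, and of hmt-1, ftn-2, hsf-1, hsp-4 and puf-5, which were not, carry such a suffix. The median gene was shifted by -0.11 on the log2 scale. That shift was 0.02 under the authors' own scaling, with which 365 probe sets were higher and 65 lower, so small negative list medians below are to be read against it. The count of 326 was 217 without control replicate 1 and 211 without replicate 1 at 20 mg/L.

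**Figure D1:**
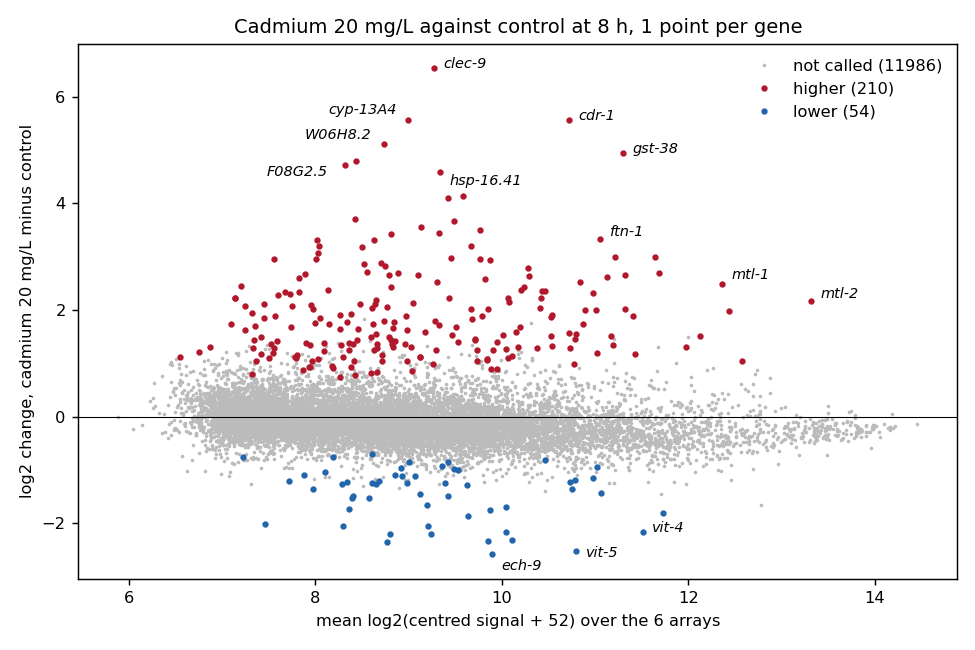
Log2 change at 20 mg/L cadmium relative to control at 8 h (vertical axis) against the mean log2(signal + 52) of the 6 arrays (horizontal axis), 1 point per tested gene. Red points are the 210 genes called higher, blue points the 54 called lower and grey points the rest; clec-9, cyp-13A4 and cdr-1 stand at the top and vit-5 and ech-9 at the bottom.

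The metallothionein and cadmium response list showed the highest share of higher members among the lists, with 5 higher and 0 lower of 9 tested and a median log2 change of 1.18, beside -0.11 over all genes. Of its 12 members 11 were on the array. The cadmium-responsive gene cdr-1, named for its induction by the metal in the intestine, had signals of 14760, 12350 and 8533 at 20 mg/L, against 305.7, 189.8 and 120 in the controls. Every exposed array stood far above every control array, a 47.3-fold difference (log2 change 5.56, SE 0.42, adjusted p = 2.707e-09). Both metallothionein genes, which code for small cysteine-rich proteins that bind zinc and cadmium, started from a higher level. For mtl-1 the signals were 13930, 13740 and 10120 at 20 mg/L, against 3075, 1281 and 2600 in the controls. The groups did not overlap and the difference was 5.62-fold (log2 change 2.49, SE 0.32, adjusted p = 1.315e-05). Signals of mtl-2 were 26020, 25120 and 15240 at 20 mg/L, against 3778, 7017 and 4047 in the controls, a 4.49-fold difference without overlap (log2 change 2.17, SE 0.38, adjusted p = 0.0006465). All 3 probe sets of mtl-2 carry a suffix for possible cross-hybridization, and all 3 were higher, by 2.17 to 3.42.

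Within the same list cdr-4 and kreg-1 also rose. The cdr-1 relative cdr-4 had 3389, 2404 and 2548 at 20 mg/L, against 471.4, 478.4 and 452.8 in the controls (5.39-fold, log2 change 2.43, SE 0.46, adjusted p = 0.001956). Its probe set can cross-hybridize. The smallest called change of the list was that of kreg-1, 1.18 (adjusted p = 0.02395), where the exposed arrays read 155.4 to 247.8 and the controls 54.7 to 65.2. The 4 members that did not pass include both genes of the phytochelatin route, in which metal is bound to a peptide made from glutathione and moved by an ABC transporter. The phytochelatin synthase gene pcs-1 had 401.4, 433.3 and 356.1 at 20 mg/L, against 360.5, 424.1 and 325 in the controls. Its change was 0.09 (95% interval -0.30 to 0.49, adjusted p = 0.9044). The transporter gene hmt-1 had 705.9, 722.9 and 675.8 at 20 mg/L, against 657.1, 686.5 and 561.4 in the controls, a change of 0.14 (95% interval -0.24 to 0.52, adjusted p = 0.8388). For both genes the groups overlapped. The remaining members cdr-2 (0.69, adjusted p = 0.3244) and cdr-6 (0.32, adjusted p = 0.7103) did not pass either.

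**Figure D2:**
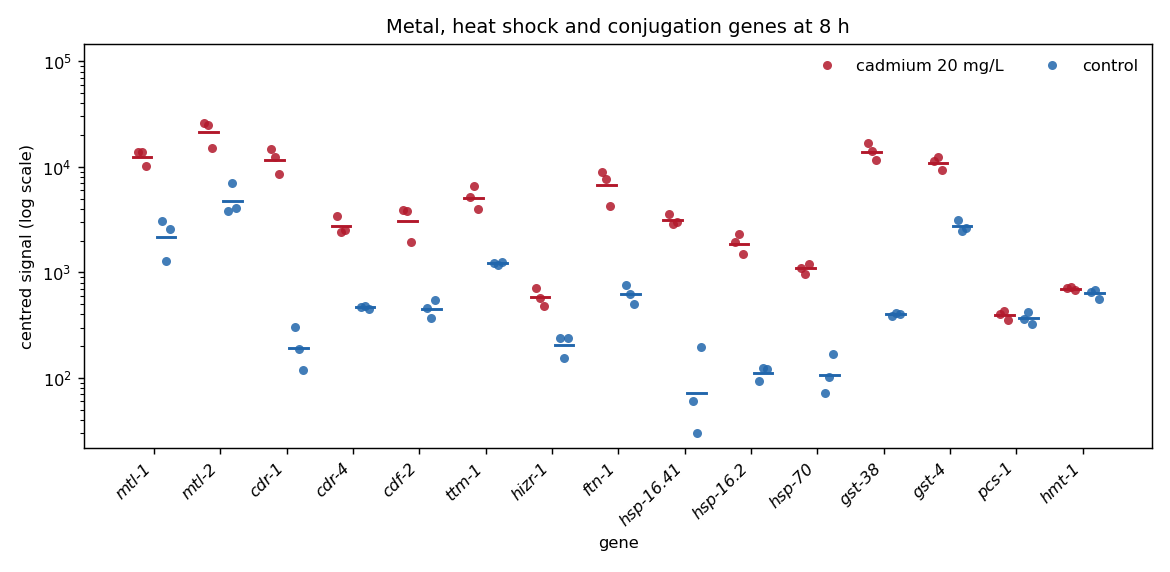
Centred signal (log axis) on each of the 3 arrays at 20 mg/L cadmium (red, left) and the 3 control arrays (blue, right) for 15 genes of metal handling, heat shock and conjugation at 8 h, with a bar at each geometric mean. Exposed and control points are apart for 13 genes, and overlap for pcs-1 and hmt-1.

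In the zinc transport list 3 of 19 members were higher and 0 lower, with a list median of -0.27. All 3 belong to the response to high zinc. The gene cdf-2, whose product moves zinc into lysosome-related gut granules, had 3874, 3831 and 1952 at 20 mg/L, against 456.3, 372.8 and 545.9 in the controls. The lowest exposed array lay above the highest control, and the difference was 6.18-fold (log2 change 2.63, SE 0.27, adjusted p = 2.993e-07). The zinc exporter gene ttm-1 had 5176, 6522 and 3974 at 20 mg/L, against 1239, 1178 and 1256 in the controls (4.05-fold, log2 change 2.02, SE 0.33, adjusted p = 0.0003233). Its 3 probe sets, all open to cross-hybridization, gave 1.17 to 2.02. The nuclear receptor gene hizr-1, whose product senses high zinc and acts on the promoters of such genes, had 707.7, 573.7 and 476.7 at 20 mg/L, against 237.1, 153.1 and 239.7 in the controls (2.44-fold, log2 change 1.29, SE 0.22, adjusted p = 0.0006574). The zinc importer genes zipt-2.3 (0.78, adjusted p = 0.2307) and zipt-2.1 (0.76, adjusted p = 0.2487) came next without passing.

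Iron and heme genes moved in both directions, with 2 higher and 1 lower of 15 (list median -0.23). Signals of the ferritin gene ftn-1, which codes for an iron storage shell and whose probe set can cross-hybridize, were 9021, 7714 and 4299 at 20 mg/L, against 756.8, 620.7 and 501 in the controls. That is 10.1-fold without overlap (log2 change 3.33, SE 0.31, adjusted p = 7.975e-08). The second ferritin gene ftn-2 read 6047, 5894 and 3365 at 20 mg/L, against 7013, 8318 and 6360 in the controls, a change of -0.54 that did not pass (adjusted p = 0.6414). The gene hrg-3, which codes for a secreted heme carrier, was dim but apart in both groups, with 167.7 to 255.3 at 20 mg/L, against 39.8 to 58.7 in the controls (2.44-fold, log2 change 1.29, SE 0.22, adjusted p = 0.0004272). The ferroportin homologue fpn-1.2, of the family of iron exporters, was lower, with 148.3, 253.2 and 212.3 at 20 mg/L, against 592.6, 629.3 and 438.6 in the controls (2.37-fold, log2 change -1.25, SE 0.31, adjusted p = 0.02738). The fpn-1.2 call was lost under the authors' scaling (adjusted p = 0.06928) and when either replicate 1, control replicate 2 or replicate 3 at 20 mg/L was left out (adjusted p from 0.07422 to 0.1663).

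Heat shock genes split into a few strongly higher members and a remainder near the median of all genes. Of 9 small heat shock protein genes 3 were higher and 0 lower, while the list median was -0.12 (0.03 under the authors' scaling). The gene hsp-16.41 had 3586, 2903 and 2979 at 20 mg/L, against 60.2, 30.4 and 198 in the controls. The difference was 24.2-fold, with control arrays that spread widely at low signal (log2 change 4.59, SE 0.69, adjusted p = 0.0001166). Its neighbour hsp-16.2 had 1933, 2293 and 1493 at 20 mg/L, against 94.4, 124 and 120.4 in the controls (11.7-fold, log2 change 3.55, SE 0.54, adjusted p = 0.0001298). The other called member, hsp-17, had 4492, 3927 and 3222 at 20 mg/L, against 965.4, 1582 and 1475 in the controls (2.86-fold, log2 change 1.51, SE 0.34, adjusted p = 0.01001). The hsp-17 call was lost without either replicate 1 (adjusted p = 0.1066 and 0.07304).

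Among 13 cytosolic Hsp70 and Hsp90 genes and their partners 1 was higher, the inducible chaperone gene hsp-70, whose probe set can cross-hybridize. It had 1098, 972.7 and 1208 at 20 mg/L, against 72 to 168.9 in the controls (7.06-fold, log2 change 2.82, SE 0.54, adjusted p = 0.002222). The constitutive genes hsp-1 (-0.37, adjusted p = 0.7439) and hsp-90 (-0.18, adjusted p = 0.8824) did not pass, nor did the heat shock factor gene hsf-1 itself (0.04, adjusted p = 0.9741). Chaperones of other compartments gave no calls. The unfolded protein response of the endoplasmic reticulum had 0 of 19 members called in limma (1 at an unadjusted p under 0.05, median 0.11), with its reporter gene hsp-4 at 5596, 4827 and 3733 at 20 mg/L, against 3885, 3998 and 4295 in the controls (log2 change 0.20, 95% interval -0.37 to 0.76, adjusted p = 0.8448). The mitochondrial list had 0 of 10 called (1 at an unadjusted p under 0.05, median -0.21). Its reporter gene hsp-6 read 2489, 2023 and 2354 at 20 mg/L, against 3631, 3548 and 2803 in the controls, apart in the direction of lower signal (log2 change -0.53, 95% interval -1.13 to 0.08, adjusted p = 0.5503). A second hsp-6 probe set changed by 0.02 (adjusted p = 0.9913).

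Glutathione S-transferases, which couple glutathione to reactive compounds, were the list with the most higher members, 11 of 39 with 0 lower and a median of 0.27. Of the 39, 31 had a positive change. The gene gst-38 had 16650, 14080 and 11560 at 20 mg/L, against 388, 415.1 and 407 in the controls. The controls lay within a narrow band and the exposed arrays 30.7-fold above it (log2 change 4.94, SE 0.39, adjusted p = 5.452e-09). For gst-30 the signals were 1253, 1585 and 770.6 at 20 mg/L, against 179.7, 131.2 and 98.6 in the controls (6.5-fold, adjusted p = 8.501e-05). The gene gst-33 was 6.32-fold higher (adjusted p = 2.993e-07, a probe set open to cross-hybridization) and gst-8, at 7.2 to 15.5 in the controls, read 245.1 to 340.4 at 20 mg/L (5.44-fold, adjusted p = 5.141e-05). The common SKN-1 reporter gene gst-4 had 11350, 12450 and 9349 at 20 mg/L, against 3136, 2477 and 2615 in the controls (3.96-fold, log2 change 1.99, SE 0.33, adjusted p = 0.0003233). The other 6 called members, gst-5, gsto-2, gst-16, gst-1, gst-6 and gst-13, changed by 0.99 to 2.37.

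Genes of glutathione synthesis and SKN-1 control gave 1 higher and 0 lower of 14 (median 0.29). The member that passed was the nitrilase gene nit-1, with 795.6, 892.8 and 653.9 at 20 mg/L, against 292.6, 416.4 and 284.5 in the controls (2.18-fold, adjusted p = 0.002113). The gene gcs-1 codes for glutamate-cysteine ligase, which limits the rate at which glutathione is made. It had 1585, 1109 and 957.2 at 20 mg/L, against 677.8, 564.6 and 512.7 in the controls. Those groups did not overlap, but the change of 0.97 missed the threshold (SE 0.27, adjusted p = 0.06563), while a second gcs-1 probe set passed at 1.55 (adjusted p = 0.003926). The count for this list depended on the processing, with 5 members higher under the authors' scaling, 6 under quantile normalization, 4 without the 20 mg/L arrays at 4 h in the fit and 3 with only the compared groups in it. Among 19 antioxidant enzymes 1 was higher and 1 lower (median 0.10). The methionine sulfoxide reductase gene msra-1, which repairs oxidised methionine, had 9521, 9069 and 6724 at 20 mg/L, against 1131, 1102 and 1537 in the controls (6.48-fold, log2 change 2.70, SE 0.33, adjusted p = 5.998e-06). The intestinal thioredoxin gene trx-3 went the other way, with 603.3, 517.5 and 497.6 at 20 mg/L, against 1770, 1756 and 2041 in the controls (3.23-fold lower, adjusted p = 0.00315). The superoxide dismutase gene sod-3, a common DAF-16 reporter, read 219.2, 164.5 and 185 at 20 mg/L, against 165.3, 179.2 and 155.5 in the controls, overlapping groups (log2 change 0.14, 95% interval -0.44 to 0.71, adjusted p = 0.9005).

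Oxidation and conjugation enzymes beyond glutathione were also among the genes of largest change. Of 41 cytochromes P450, which oxidise foreign compounds, 8 were higher and 0 lower (median 0.16). Signals of cyp-13A4 were 7065, 2641 and 2196 at 20 mg/L, against 5.8, 35.9 and 27.6 in the controls (47.4-fold, log2 change 5.57, SE 0.39, adjusted p = 6.858e-10). The control signals lay below the pseudocount of 52 added before the log, so this fold and that of other genes dim in the controls understates the ratio of signals. Its relative cyp-13A5 was 7.74-fold, cyp-33C7 17.2-fold and cyp-14A4 13.1-fold higher (adjusted p = 1.328e-07, 1.951e-07 and 3.629e-08), each without overlap. UDP-glucuronosyltransferases, which add sugars to such compounds, had 9 higher and 1 lower of 50 (median 0.26). For ugt-1 the signals were 3634, 3082 and 2121 at 20 mg/L, against 203.7, 180.4 and 239.1 in the controls (11.3-fold, adjusted p = 3.996e-08). Then followed ugt-16 (7.34-fold, adjusted p = 2.453e-05), ugt-62 (5.09-fold, adjusted p = 1.315e-05) and ugt-41 (4.02-fold, adjusted p = 0.01564), the last of which lost its call without any one of 5 of the 6 arrays (adjusted p from 0.05296 to 0.1196). The lower member was ugt-6 (-1.49, adjusted p = 0.001444).

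Export pumps and dehydrogenases added a few genes. Of 28 ABC transporters 2 were higher and 0 lower (median 0.19), the P-glycoprotein genes pgp-9, with 1375 to 1584 at 20 mg/L, against 169.9 to 264.4 in the controls (5.78-fold, adjusted p = 5.241e-06), and pgp-1 (2.08-fold, adjusted p = 0.003625; adjusted p = 0.0515 without control replicate 1). The short-chain dehydrogenase gene dhs-9 was the 1 higher member of 26, at 3.32-fold (adjusted p = 0.0005826), and nhr-22 the 1 higher of 163 nuclear hormone receptors, at 1.78-fold (adjusted p = 0.01375). Over all genes tested 1.71% were higher. The share of nuclear hormone receptors lies below that, and 1 call among 26 is too few to set the dehydrogenases apart from it. Probe sets of pgp-1, dhs-9 and nhr-22 can cross-hybridize. The nhr-22 call was lost without replicate 1 or 2 at 20 mg/L or control replicate 2 (adjusted p from 0.07887 to 0.1085).

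**Figure D3:**
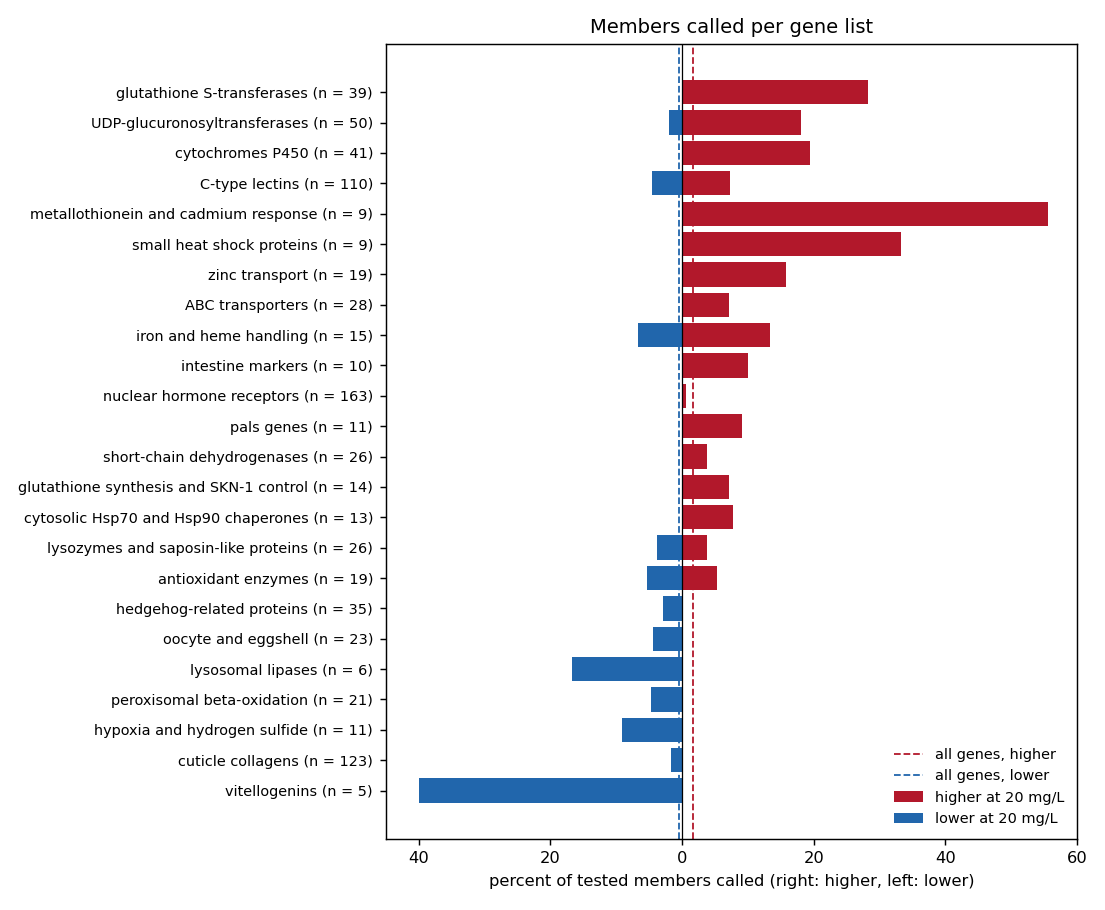
Percent of tested members called higher (red, to the right) or lower (blue, to the left) at 20 mg/L relative to control at 8 h, for the 24 lists with at least 1 call. Dashed lines mark the shares over all genes tested, 1.71% higher and 0.441% lower.

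Proteins with C-type lectin domains, many of them secreted by the intestine, went both ways, with 8 higher and 5 lower of 110 tested (220 on the array) and a median of 0.00. The gene of largest change in the comparison, clec-9, had 7665, 5694 and 4732 at 20 mg/L, against 4.2, 28.5 and 7.2 in the controls (92.5-fold, log2 change 6.53, SE 0.55, adjusted p = 1.47e-08). Next came clec-3 (9.19-fold, adjusted p = 5.424e-06) and clec-143 (7.28-fold, adjusted p = 3.058e-06). On the lower side clec-4 had 336.6, 423.4 and 326.8 at 20 mg/L, against 1994, 2122 and 1991 in the controls (5.06-fold, log2 change -2.34, SE 0.37, adjusted p = 0.0001992). The gene clec-70 was 4.59-fold lower (adjusted p = 1.863e-06). Lysozyme genes gave 1 higher and 1 lower of 26 in their list, ilys-2 (3.35-fold, adjusted p = 0.00744) and lys-6 (3.37-fold lower, adjusted p = 0.001893). Over all genes tested 1.71% were higher and 0.441% lower. The ilys-2 call was lost without control replicate 2 or without replicate 1 or 2 at 20 mg/L (adjusted p from 0.05191 to 0.06338). Of 11 pals genes, a family tied to the intracellular pathogen response, pals-6 was higher (3.36-fold, adjusted p = 0.02227), a call lost without either replicate 1, control replicate 2 or replicate 3 at 20 mg/L (adjusted p from 0.06038 to 0.1483).

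Several of the 12 higher genes of largest change lay outside these lists. The gene W06H8.2 had 2974, 2688 and 1856 at 20 mg/L, against 51, 8.4 and 9.5 in the controls (34.6-fold, log2 change 5.11, SE 0.46, adjusted p = 3.629e-08). T08G5.1, which neighbours mtl-2 among the tested genes in the RefSeq annotation, had 2148, 1510 and 1729 at 20 mg/L, against 3.2, 9.6 and 32.9 in the controls (27.7-fold, adjusted p = 4.448e-10). F08G2.5 read 1327 to 2032 at 20 mg/L, against 7.1 to 13.6 in the controls (26.4-fold, adjusted p = 1.6e-06). For bcmo-2, a homologue of beta-carotene oxygenases, the signals were 3747, 3112 and 2747 at 20 mg/L, against 117.7, 139.8 and 137.3 in the controls. This was the smallest adjusted p of the named genes (17.6-fold, log2 change 4.14, SE 0.24, adjusted p = 2.045e-11), from a probe set open to cross-hybridization. The gene cld-9 was 12.7-fold higher (adjusted p = 4.452e-05).

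Genes lower at 20 mg/L were fewer and their changes smaller. Vitellogenins, the yolk proteins made by the intestine and taken up by oocytes, had 0 higher and 2 lower of 5, a list median change of -0.99 and 4 of 5 members with exposed arrays all below the controls, beside 13.6% of all genes. The gene vit-5 had 543.3, 1021 and 593.4 at 20 mg/L, against 3814, 7855 and 2506 in the controls (5.75-fold lower, log2 change -2.52, SE 0.43, adjusted p = 0.0005589). The vit-5 call was lost when no pseudocount was added (adjusted p = 0.08884). For vit-4 the signals were 1082, 1572 and 1375 at 20 mg/L, against 6234, 9261 and 3992 in the controls (4.48-fold lower, log2 change -2.16, SE 0.38, adjusted p = 0.0006457). Both rest on probe sets open to cross-hybridization, and of 3 vit-4 probe sets 1 did not pass (-1.58, adjusted p = 0.09254). The others, vit-6 (-0.99, adjusted p = 0.4368), vit-1 (-0.93, adjusted p = 0.2682) and vit-2 (-0.77, adjusted p = 0.5535), did not pass. Summed over the list, signal was 9062, 11539 and 8841 at 20 mg/L, against 24169, 38441 and 17177 in the controls. In the unexposed controls at 4 h, vit-5 read 39.1, 143.5 and 254.5 and vit-4 read 127.8, 180.9 and 303.7. For these 2 genes the signals at 20 mg/L and 8 h thus lay above the 4 h controls and below the 8 h controls. The difference from the 4 h controls was not tested. In RNA of whole animals, fewer cells of a type and less RNA per cell cannot be told apart.

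Oocyte and eggshell genes had a median change of -1.0 over 23 members, of which 0 were higher and 1 lower, while 15 had exposed arrays all below the controls, beside 13.6% of all genes. The member that passed, oma-2, which codes for an RNA-binding protein of oocyte maturation, did so narrowly, with 134.8, 197.1 and 125.9 at 20 mg/L, against 610.6, 1121 and 186.3 in the controls. These groups overlapped (log2 change -1.49, SE 0.39, adjusted p = 0.0416), and the call was lost under the authors' scaling (adjusted p = 0.05496) and in 5 of the 6 fits that left out an array (adjusted p from 0.07001 to 0.413), among them all 3 without an exposed array. A second oma-2 probe set gave -1.48 (adjusted p = 0.02166). In the unexposed controls at 4 h oma-2 read 66.2, 36.1 and 51.9, below all 3 exposed arrays at 8 h. The yolk receptor gene rme-2 read 1030, 949.6 and 729 at 20 mg/L, against 2125, 3290 and 1346 in the controls, without overlap, and did not pass (-1.20, adjusted p = 0.07513). The chitin synthase gene of the eggshell, chs-1, read 478, 358.7 and 275 at 20 mg/L, against 974.4, 1350 and 642.6 in the controls (-1.27, adjusted p = 0.1252). Control replicate 2 was the highest and control replicate 3 the lowest of the controls in the summed oocyte list (25414, 24775 and 14517 at 20 mg/L, against 34224, 54244 and 27972 in the controls) as in the yolk list. Without replicate 3 at 20 mg/L, 0 of the 23 passed, and without the 20 mg/L arrays at 4 h in the fit, 5 were lower.

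Sperm genes gave 0 calls of 69 in limma, and 0 at an unadjusted p under 0.05 (median -0.29, range -0.80 to 0.34). Their summed signals were 425724, 368676 and 285807 at 20 mg/L, against 394776 to 468126 in the controls. Without replicate 3 at 20 mg/L, which had the lowest sum, the median was -0.14. DNA replication and cell cycle genes, most active in the dividing germ line at this age, gave 0 calls of 22. At an unadjusted p under 0.05 there were 10, beside 1824 of all 16183 probe sets tested. The median of the 22 was -0.58, and 0 members had a positive change. Their strongest member was cyb-3, a mitotic cyclin (-1.03, adjusted p = 0.1354). Other maternal and germline members such as spn-4 (-1.13, adjusted p = 0.05009) and puf-5 (-1.40, adjusted p = 0.113) stayed short of the threshold.

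**Figure D4:**
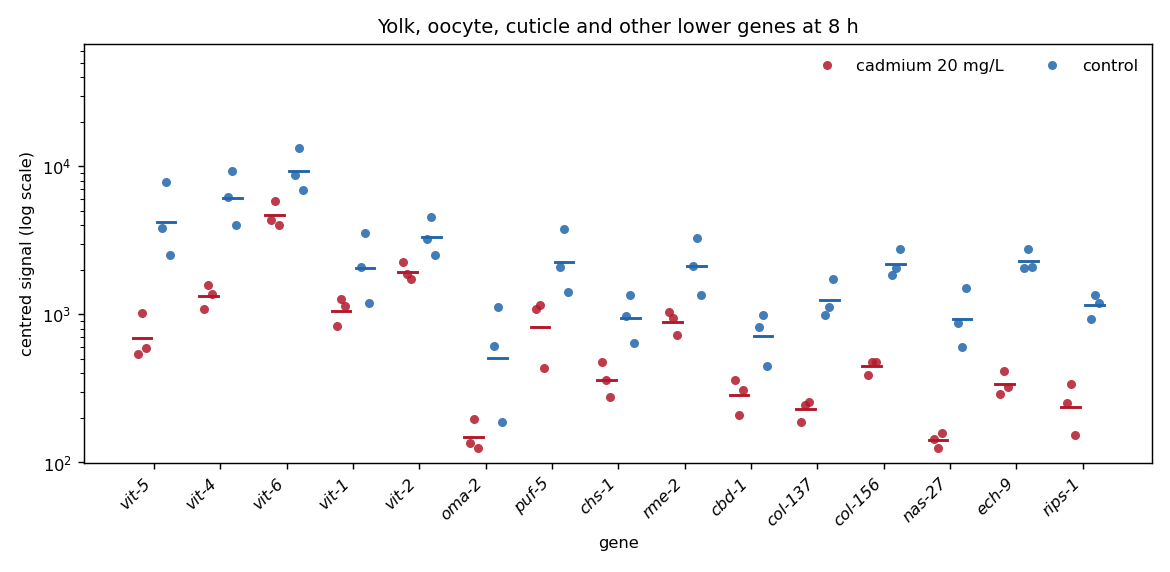
Centred signal (log axis) on each of the 3 arrays at 20 mg/L cadmium (red, left) and the 3 control arrays (blue, right) for 15 yolk, oocyte, cuticle and other genes at 8 h, with a bar at each geometric mean. All exposed points lie below all control points except for oma-2 and vit-1; of these 15 genes 8 were called lower.

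Of 123 cuticle collagens 2 were lower and 0 higher (median -0.27). Signals of col-137 were 188.8, 245.3 and 257.3 at 20 mg/L, against 983.4, 1123 and 1737 in the controls (4.62-fold, adjusted p = 0.001461). For col-156 they were 388.8, 480.2 and 476.9 at 20 mg/L, against 1839, 2051 and 2767 in the controls (4.49-fold, adjusted p = 0.0005415). The astacin protease gene nas-27 had 143, 125.2 and 156.9 at 20 mg/L, against 877.8, 605.6 and 1503 in the controls (5.09-fold, adjusted p = 0.002222). The moulting list gave 0 calls of 20 (1 at an unadjusted p under 0.05, median 0.05). Among 35 hedgehog-related genes wrt-9 was 1.69-fold lower (adjusted p = 0.04694), a call lost under the authors' scaling (adjusted p = 0.1806) and in 5 of the 6 fits without an array (adjusted p from 0.09988 to 0.2235).

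The gene of largest decrease was ech-9, of the enoyl-CoA hydratase family that acts in fatty acid oxidation, with 289.5, 411.9 and 321.7 at 20 mg/L, against 2065, 2766 and 2090 in the controls (6.00-fold, log2 change -2.58, SE 0.28, adjusted p = 6.776e-07). It was the 1 called member of 21 peroxisomal genes (0 higher, 1 lower, median -0.33). The lysosomal lipase gene lipl-1 was 1.92-fold lower (adjusted p = 0.03871), and its call was lost in 5 of the 6 fits that left out an array (adjusted p from 0.1022 to 0.2217). In the hypoxia and hydrogen sulfide list 0 were higher and 1 lower of 11 (median -0.44). That member was rips-1, with 252.4, 341 and 153.8 at 20 mg/L, against 936.7, 1347 and 1201 in the controls (4.13-fold, log2 change -2.05, SE 0.43, adjusted p = 0.005674; adjusted p = 0.05572 without replicate 3 at 20 mg/L). F49C12.7 was 4.99-fold, C27D9.2 4.17-fold and F48G7.8 4.04-fold lower (adjusted p = 0.0001262, 0.002436 and 0.00228), each without overlap.

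Tissue markers showed no call for muscle, pharynx or neurons. Body wall muscle markers had 0 called of 11 (1 at an unadjusted p under 0.05, median -0.25). Their summed signals were 49229, 48438 and 31474 at 20 mg/L, against 48631, 60517 and 56615 in the controls. The lowest sum was that of replicate 3 at 20 mg/L, without which the median was -0.11, beside -0.07 over all genes. Pharynx markers had 0 of 13 called (median -0.04) and neuron markers 0 of 16 (median -0.03), also at an unadjusted p under 0.05, with neuron sums of 10354 to 11595 at 20 mg/L, against 9639 to 10988 in the controls. Of 10 intestine markers 1 was higher, the gut esterase gene ges-1, with 1425, 1284 and 1145 at 20 mg/L, against 571.5, 590.6 and 566.7 in the controls (2.12-fold, adjusted p = 0.001895, a probe set open to cross-hybridization). The intestinal identity factor gene elt-2 changed by 0.08 (adjusted p = 0.9446) and the peptide transporter gene pept-1 by -0.88 (adjusted p = 0.5277). In limma with Benjamini-Hochberg adjustment no member was called in the lists of proteasome subunits (33 tested, median -0.35), cytosolic ribosomal proteins (61, -0.26), autophagy (18, 0.24), DNA damage and apoptosis (13, -0.14), glycerol and osmotic stress (14, 0.07), epidermal antimicrobial peptides (9, 0.35) or fatty acid elongases and desaturases (15, -0.20). Of all 16183 probe sets tested 1824 had an unadjusted p under 0.05. At that threshold these lists held 1, 0, 3, 2, 1, 3 and 2 members, in the same order. Without replicate 3 at 20 mg/L their medians were -0.14, -0.08, 0.27, -0.18, 0.23, 0.53 and -0.10, again in that order.

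The next comparison asks which of these transcripts changed with the dose at 8 h. Against 5 mg/L, 71 probe sets passed at 20 mg/L (0.439%), 63 higher (0.389%) and 8 lower (0.0494%), or 61 genes (0.498%), 54 higher (0.441%) and 7 lower (0.0571%). Replicate 3 at 5 mg/L read closer to 20 mg/L than its companions for many responsive genes. The clec-9 signals, for example, were 7665, 5694 and 4732 at 20 mg/L and 358, 536.4 and 2789 at 5 mg/L. Without that array 114 probe sets passed (89 higher and 25 lower), and without any other single array of the 2 groups 22 to 41.

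Genes that differed between these doses included ferritin, oxidative repair and yolk genes. At 20 mg/L the ftn-1 signals of 9021, 7714 and 4299 stood above 811.6, 698.3 and 1196 at 5 mg/L (7.24-fold, log2 difference 2.86, SE 0.31, adjusted p = 1.014e-05), and msra-1 differed by 2.30 (SE 0.33, adjusted p = 0.0002925). W06H8.2 had 2974, 2688 and 1856 at 20 mg/L and 67.9, 19.7 and 293.9 at 5 mg/L, a log2 difference of 4.13 (SE 0.46, adjusted p = 1.014e-05). Higher by 2.56 to 2.95 were also Y38H6C.8, clec-9, clec-3 and F55G11.2 (adjusted p from 0.0002682 to 0.01535). Glutathione S-transferase genes gst-30 (2.38, adjusted p = 0.002132), gst-8 (1.58, adjusted p = 0.03313) and gst-4 (1.54, adjusted p = 0.02535) differed, as did hsp-70 (2.38, adjusted p = 0.04178) and hrg-3 (1.19, adjusted p = 0.00552). Lower at 20 mg/L than at 5 mg/L were nas-27 (-2.07, adjusted p = 0.03313), rips-1 (-1.91, adjusted p = 0.03963), vit-5 (-1.91, adjusted p = 0.04043), vit-4 (-1.77, adjusted p = 0.02535), col-156 (-1.71, adjusted p = 0.02972) and D1086.3 (-1.56, adjusted p = 0.01533). For vit-4 the signals were 1082, 1572 and 1375 at 20 mg/L and 4028, 6934 and 3621 at 5 mg/L, without overlap.

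The metal-binding genes did not pass between these doses. The cdr-1 signals were 14760, 12350 and 8533 at 20 mg/L and 10800, 10400 and 9923 at 5 mg/L, overlapping groups with a log2 difference of 0.16 (95% interval -0.71 to 1.03, adjusted p = 0.9526). The difference was 0.24 for mtl-1 (95% interval -0.42 to 0.90, adjusted p = 0.8982) and -0.21 for mtl-2 (95% interval -0.98 to 0.56, adjusted p = 0.9258). These intervals allow differences of about 2-fold. For cdf-2 (0.67, interval 0.12 to 1.22, adjusted p = 0.5256) and gst-38 (1.22, interval 0.42 to 2.03, adjusted p = 0.2901) the unadjusted intervals lay above 0 but the difference failed the correction over all probe sets. The same held for hsp-16.2 (2.20, interval 1.09 to 3.31, adjusted p = 0.07606) and hsp-16.41 (1.96, interval 0.54 to 3.39, adjusted p = 0.4042). It held too for cdr-4 (1.57, interval 0.61 to 2.52, adjusted p = 0.2183), ttm-1 (0.79, interval 0.10 to 1.47, adjusted p = 0.5723) and hizr-1 (0.72, interval 0.26 to 1.18, adjusted p = 0.2571). The cdr-4 signals were 3389, 2404 and 2548 at 20 mg/L and 620.8, 688.4 and 1645 at 5 mg/L, without overlap.

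**Figure D5:**
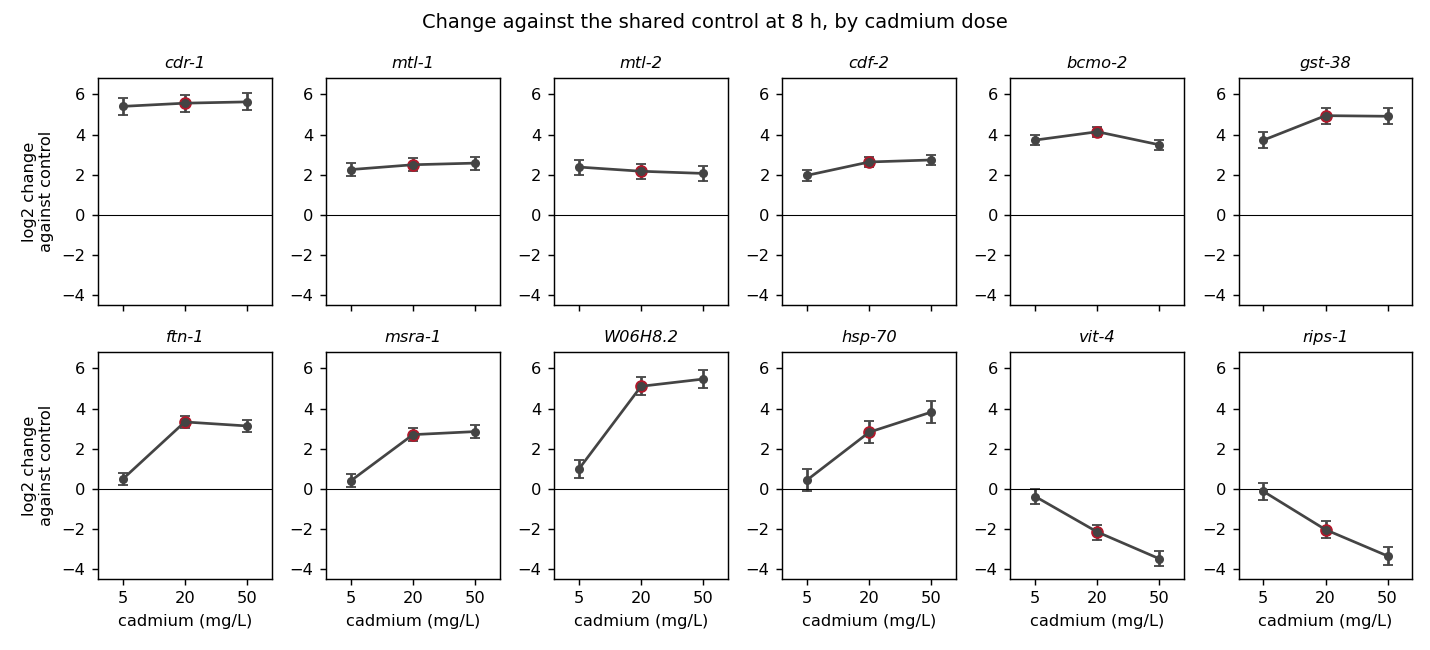
Log2 change relative to the 8 h control (vertical axes) at 5, 20 and 50 mg/L cadmium (horizontal axes) for 12 genes, with the standard error as bars and 20 mg/L in red. All 3 changes share the same 3 control arrays; cdr-1, mtl-1 and mtl-2 lie level from 5 mg/L on, while at 5 mg/L ftn-1, msra-1 and hsp-70 lie at 0.48, 0.39 and 0.44 and W06H8.2 at 0.99, and vit-4 and rips-1 are lower from 20 mg/L on.

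Set beside the shared 8 h control, the log2 changes at 5, 20 and 50 mg/L were 5.40, 5.56 and 5.63 for cdr-1, 2.25, 2.49 and 2.57 for mtl-1, and 2.37, 2.17 and 2.06 for mtl-2. They were 0.48, 3.33 and 3.13 for ftn-1, 0.39, 2.70 and 2.85 for msra-1, and -0.39, -2.16 and -3.50 for vit-4. For cdr-4 they were 0.86, 2.43 and 3.37. These 3 comparisons use the same control arrays, so their likeness is not tested here. Of all genes, 0.327% were called at 5 mg/L, 2.16% at 20 mg/L and 6.8% at 50 mg/L. Genes called lower made up 0.049% of all genes at 5 mg/L, 0.441% at 20 mg/L and 2.87% at 50 mg/L. Of 23 oocyte genes 0 were lower at 5 mg/L, 1 at 20 mg/L and 17 at 50 mg/L, and of 5 vitellogenins 0, 2 and 5 were. Such counts are not a test between doses. In the direct tests 0 of the 23 oocyte genes were called, both for 20 against 5 mg/L and for 50 against 20 mg/L. Of the vitellogenins 2 were lower at 20 than at 5 mg/L, and 0 were called between 50 and 20 mg/L.

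Between 50 mg/L and 20 mg/L 2 probe sets passed in limma (0.0124%), both higher at 50 mg/L. Of 16183 probe sets 342 had an unadjusted p under 0.05. That is a smaller share than the 0.05 that would fall there without any difference. T22F3.11, a gene outside the lists, had 611.3, 779.3 and 850.8 at 50 mg/L, against 106.9, 114.2 and 277.8 at 20 mg/L (log2 difference 1.95, adjusted p = 0.00684). C23G10.11 had 632.5, 650.2 and 427.1 at 50 mg/L, against 151.6, 139.7 and 111.5 at 20 mg/L (log2 difference 1.72, adjusted p = 0.003852). Without 1 array at a time the count was 0 to 2, with 0 when replicate 2 at 50 mg/L was left out. The vit-4 difference of -1.34 (95% interval -2.11 to -0.57, adjusted p = 0.9999) and the rips-1 difference of -1.32 (95% interval -2.20 to -0.43, adjusted p = 0.9999) did not survive the correction. The intervals for cdr-1 (-0.81 to 0.94) and ftn-1 (-0.84 to 0.44) allow differences of under 2-fold in either direction.

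The last comparison set the effect of 20 mg/L at 8 h against its effect at 4 h, each relative to the control of its time. It rests on the 2 arrays at 4 h that correlated at 0.788, and its 22 called probe sets (0.136%) became 10 without replicate 1 and 5106 without replicate 2 of that group. Without control replicate 3 at 8 h the count was 147, and without any other single array 10 to 21. In each fit without an exposed 4 h array, 1 array is left at 20 mg/L and 4 h and is assumed to vary like the other groups. Of the 18 genes called (0.147%), ech-9 was -2.58 at 8 h and -0.24 at 4 h (difference -2.34, SE 0.41, adjusted p = 0.01105). Its signals at 8 h were 289.5, 411.9 and 321.7 at 20 mg/L, against 2065, 2766 and 2090 in the controls, and at 4 h they were 177.9 and 259.7 at 20 mg/L, against 245.1, 244.8 and 309.3 in the controls. The gene clec-70 was -2.20 at 8 h and 0.68 at 4 h (difference -2.88, adjusted p = 0.0005853). Its signals at 8 h were 144.9, 172.9 and 151.5 at 20 mg/L, against 897.3, 1120 and 730.2 in the controls. At 4 h they were 362.3 and 192.7 at 20 mg/L, against 177.2, 149.5 and 118 in the controls. For ech-9 and clec-70 every control array thus read higher at 8 h than any did at 4 h. Change with time within a group was not tested. None of the metallothionein, zinc, iron or heat shock genes was called in this comparison, in which 2759 probe sets had an unadjusted p under 0.05.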

How the data were processed

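Whole-worm RNA was hybridised to oligonucleotide expression arrays, and the authors deposited 1 intensity per probe set and array, made with MAS5 per the submitters' processing notes, with no version given. Each array was centred to the common median of 202.9, 52 was added (the 20th percentile of all signals) and log2 taken. Of 22548 probe sets other than array controls, 16183 exceeded 132 (the 40th percentile) on at least 3 cadmium arrays and were tested. limma 3.58.1 in R 4.3.3 fitted 1 mean per group over 26 cadmium arrays in 9 groups (17 residual degrees of freedom, prior variance with a trend), with Benjamini-Hochberg adjustment over all tested probe sets and calls at 0.05. Folds are on the log2(signal + 52) scale and understate changes of dim genes.

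Each gene is represented by its probe set of highest mean, those without a cross-hybridization suffix first, which gave 12250 genes, 3162 of them on such probe sets. Platform annotation named 1 symbol for 20766 probe sets, several for 887 and none for 895. Of 1531 entries in 39 gene lists, 8 had no probe set of their own and 354 fell below the filter. Members and lists were chosen with earlier results of these data known. Text names the 12 genes of largest change in each direction, up to 4 called members of each list, fixed metal and stress genes, and up to 6 per direction in other comparisons. Other members named, kreg-1 among them, were chosen after their values were seen. Detection calls were not used, so a dim signal has no call of absence. The number of arrays limits the precision. Alternatives covered scaling, pseudocount, filter, arrays in the fit, a replicate block, the variance trend and leaving out each array. The fit was also run on simulated data with independent normal noise. That setting lacks the discordant 4 h arrays and the raised dim signals of replicate 3, so it does not test their effect.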

Additional observations from a re-analysis of the deposited data

Results flagged for a closer look

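The effect of 20 mg/L cadmium at 8 h and its effect at 4 h, each relative to the control of its time, differed in an interaction test for 18 genes (limma, adjusted p from 0.0005853 to 0.03745). Differences are effect at 8 h minus effect at 4 h on the log2 scale. All genes with a positive difference but H20E11.2 were below control at 4 h. It was largest for pud-3 (3.99), whose effects were -0.11 at 8 h and -4.10 at 4 h, and pud-4 followed (2.67). The purine synthesis genes pfas-1 (2.65) and atic-1 (2.51) were alike in this, with 0.08 and -0.23 at 8 h and -2.57 and -2.74 at 4 h. The other positive differences were those of cyp-37B1 (2.47), F55F8.7 (2.4), Y105E8B.9 (2.17), dhs-26 (2.12), asp-13 (2.10), nhr-112 (2.03), K09C4.1 (1.89), sor-3 (1.84), H20E11.2 (1.63) and R05A10.3 (1.6). Of these, H20E11.2 was above control at both times, by 2.18 at 8 h and 0.55 at 4 h.

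Negative differences were found for clec-70 (-2.88), ech-9 (-2.34), btb-12 (-2.28) and clec-69 (-2.20). For each of these genes every control array at 8 h read above every control array at 4 h. The lectin gene clec-69 was -1.21 at 8 h and 0.99 at 4 h, and btb-12 was -0.86 at 8 h and 1.42 at 4 h. At 4 h these effects rest on 2 arrays with a correlation of 0.788. Leaving out either array leaves 1 at 20 mg/L and 4 h, assumed to vary like the other groups, and the count over all probe sets was then 10 without the first and 5106 without the second, so such fits do not show which of the 18 genes are stable. Probe sets of pfas-1, Y105E8B.9, asp-13 and R05A10.3 can cross-hybridize.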

How the results depend on the processing

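Each count is of probe sets called in limma. For 20 mg/L relative to control at 8 h (326), quantile normalization gave 509, all 80 arrays in the fit 586 (370 higher, 216 lower) and the 12 arrays at 8 h alone 518, while the other settings that keep all arrays of both groups gave 281 to 472. The fit of the compared groups alone gave 444 (328 higher, 116 lower). Leaving out 1 array gave 211 to 339. For 20 mg/L relative to 5 mg/L (71), the authors' scaling gave 116, quantile normalization 158, no pseudocount 34, the compared groups alone 167, all 80 arrays 161, the fit without the 20 mg/L arrays at 4 h 109, the 8 h arrays alone 166 and leaving out 1 array 22 to 114. For 50 mg/L relative to 20 mg/L (2), quantile normalization and no pseudocount gave 1 each, the fit without the 4 h arrays of 20 mg/L 5, the 8 h arrays alone 4 and leaving out 1 array 0 to 2. For the effect at 8 h against that at 4 h (22), the authors' scaling gave 35, quantile normalization 54, no filter 34, the compared groups alone 2, all 80 arrays 749 and leaving out 1 array 10 to 5106. The cause of these shifts was not tested. Fits without the 4 h arrays of 20 mg/L and of the 8 h arrays alone were added after the data were seen.

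Deviations from the group mean at 20 mg/L and in the control at 8 h correlated at -0.291, 0.23 and 0.056 for arrays of the same replicate number. For arrays of different numbers the range was -0.263 to 0.294. These values cover 2 groups only and do not settle whether arrays of 1 replicate number share an effect across the series. With the replicate block 464 probe sets passed (306 higher, 158 lower), 89 relative to 5 mg/L, 2 at 50 mg/L relative to 20 mg/L and 70 for the difference between times. For named genes relative to control, 1145 values under an alternative kept direction and call, 55 kept direction but missed the threshold, 6 (all of gcs-1) newly passed it and 0 changed direction. Most of these genes were picked for their change or call in the same data, so the tally does not speak for calls in general. Of all 326 called probe sets, 205 to 264 kept their call when 1 array was left out. Dim probe sets near the pseudocount limit the folds.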

Other observations

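Genes outside the lists, chosen after their values were seen, were also among those that changed at 20 mg/L cadmium at 8 h. Of 9 amino acid transporter genes of the aat family 3 were higher, beside 1.71% of all genes, while the family median was -0.13. These were aat-7, with 767.5, 685.5 and 565.7 at 20 mg/L, against 74.4, 19.2 and 35.6 in the controls (7.8-fold, adjusted p = 9.822e-08), aat-1 (log2 change 2.02) and aat-8 (1.64). The sugar transporter gene swt-6 changed by 2.98 and the aspartyl protease gene asp-17 by 3.42. Besides bcmo-2 its relative bcmo-1 was higher, with 931.6, 768.1 and 631.1 at 20 mg/L, against 20.1, 49.5 and 24.2 in the controls (log2 change 3.32, adjusted p = 3.552e-08). Of 9 dod genes (family median 0.91) 3 were higher, among them dod-17 with 3355, 3479 and 1409 at 20 mg/L, against 267.8, 289.9 and 302.3 in the controls (log2 change 2.94). The aat and dod families were picked for their calls. Other families with higher members were clc (4 of 21), oac (3 of 20), slc (3 of 32) and ttr (3 of 38). These too were picked by their calls, since only families with at least 3 called genes were kept. Such counts are therefore no test of a family. The infection response gene irg-4 had 6596, 7114 and 5507 at 20 mg/L, against 803.1, 704 and 1601 in the controls (log2 change 2.65), and irg-6 changed by 1.63. The fatty acid ligase gene acs-2 was higher (1.69), while its relative acs-1 was lower, with 1236, 1557 and 1150 at 20 mg/L, against 3362, 3377 and 2293 in the controls (-1.15).

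Some higher genes were neighbours in the RefSeq gene order. Of 11925 tested genes with a mapped position 207 were higher, and 42 of these lay in 18 runs of adjacent tested genes that were all higher. The number of runs to be expected from these counts was not computed, so an excess of runs was not tested. Some runs hold genes of 1 family, such as cyp-13A4 with cyp-13A5 and ugt-1 with ugt-2. The longest run held 6 genes, K08D8.3, K08D8.4, K08D8.5, irg-6, C32H11.3 and C32H11.4, of which K08D8.3 rests on a probe set open to cross-hybridization. The lower genes formed 1 such run, of F48G7.5, whose probe set can cross-hybridize too, and F48G7.8.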
